A study of Mus musculus with 4 samples.

Results

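The genes described here are 8 genes of chromosome X with known roles in neurons: Gria3, Gabra3, Glra2, Htr2c, Nlgn3, Pcdh11x, Dcx and Dach2. They were taken from a list of neuronal genes labelled as not expressed in fibroblasts, and are 8 of 966 protein-coding genes of the chromosome in the RefSeq annotation. Each was placed by its midpoint in 1 of 588 bins of 250 kb with data, and also in its bin of 100 kb, in all 8 deposited matrices. Expression was not measured in these files, so neither the lack of expression nor the fibroblast label was checked here.

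The matrices came from Hi-C of female mouse tail tip fibroblasts, primary skin-derived connective tissue cells, from mus/cas hybrid animals, whose 2 X chromosomes can be told apart by sequence. The groups were 2 wild-type (WT) samples and 2 Sirt7-/- (KO) samples, the latter lacking the nuclear deacylase SIRT7, and the sources used here do not give the animals' ages, the form of the deleted allele or which X was inactive. The 2 replicates of a genotype were combined before deposit, so there is 1 matrix for each genotype, chromosome and bin size, no comparison has a replicate check, and no test or error of a value was possible. Each entry is the correlation between the contact profiles of 2 bins. A design note of the series speaks of Xist binding, but labels and headers are those of Hi-C.

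As background, chromosomes fold into an A compartment, rich in active genes, and a B compartment, rich in silent genes and often held near the nuclear lamina. Long genes used in neurons often lie in gene-poor DNA that belongs to B in other cell types. In female cells 1 X is coated by Xist RNA and silenced, and it folds into a pair of large domains that meet at the Dxz4 macrosatellite, with weak compartments.

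Of the 8 genes, 3 encode subunits of ligand-gated ion channels. Gria3, a subunit of AMPA-type glutamate receptors, lies at chrX:41400819-41678601 (mm10, as are all positions here). Gabra3, a GABA-A receptor subunit, lies at chrX:72432676-72656919, and Glra2, a glycine receptor subunit, at chrX:165129017-165327867. Htr2c, a G protein-coupled serotonin receptor, lies at chrX:146962464-147197277. The adhesion genes are Nlgn3, a postsynaptic neuroligin, at chrX:101299179-101321350, and Pcdh11x, a protocadherin, at chrX:120290238-120910622. Dcx, a microtubule-binding protein of migrating neurons, lies at chrX:143855842-143933396, and Dach2, a transcription cofactor of the dachshund family, at chrX:113297496-113836386.

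The genes differ in size and surroundings. Pcdh11x (620 kb) and Dach2 (539 kb) are the longest, 6 genes are longer than 100 kb, and Dcx (77.6 kb) and Nlgn3 (22.2 kb) are shorter. The Nlgn3 bin of 250 kb holds the midpoints of 9 protein-coding genes, among them Med12, Foxo4 and Nono, and the Dcx bin holds that of Capn6 too. The other 6 genes are alone in their bins, against a median of 1 and a mean of 1.45 protein-coding genes over all bins. Gria3 and Gabra3 lie on the left of Dxz4 (lower coordinates) and the other 6 on its right, and Gabra3 is the closest, 3.20 Mb away.

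Promoter sequence was at hand for 5 of the 8 genes, with 8 transcription starts (RefSeq, GRCm38.p6). Those of Gabra3, the gene with the largest difference between genotypes below, and of Dach2 are shown because they differ in CG dinucleotides, the sites of DNA methylation. Each line gives the 250 bases before a start, with CG in capitals, for Gabra3 at chrX:72656920-72657169 on the minus strand and for Dach2 at chrX:113297260-113297509 on the plus strand.
Gabra3: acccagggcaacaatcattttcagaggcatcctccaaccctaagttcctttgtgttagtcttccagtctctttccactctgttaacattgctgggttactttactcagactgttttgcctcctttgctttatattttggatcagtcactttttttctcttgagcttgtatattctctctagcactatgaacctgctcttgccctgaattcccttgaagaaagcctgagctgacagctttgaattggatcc
Dach2: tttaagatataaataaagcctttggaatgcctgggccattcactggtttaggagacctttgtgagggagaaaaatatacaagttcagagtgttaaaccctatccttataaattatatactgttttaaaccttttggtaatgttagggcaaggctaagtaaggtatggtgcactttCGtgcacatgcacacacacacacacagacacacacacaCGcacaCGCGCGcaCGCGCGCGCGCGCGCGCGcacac
Gabra3 had 0 CG in these 250 bases and Dach2 had 14, most of them in an alternating repeat next to the start. In windows that run to 50 bases after the start, Gabra3 had 0 at both of its starts, Dcx 3 at both, Htr2c 5, Glra2 9 and Dach2 15 and 16, against a median of 7 over 32851 promoters. HindIII, the enzyme that cut the chromatin here, recognises AAGCTT, which reads the same on both strands. That site was in 7.45% of all promoter windows and in 8.67% of 1223 on chromosome X, and of the 5 genes it was in those of Dcx and Htr2c. The next lines give 30 bases around it, with the site in capitals, at chrX:143933209-143933238 on the minus strand for Dcx and at chrX:146962528-146962557 on the plus strand for Htr2c.
Dcx: ggggtgttcgctAAGCTTcagttacagggg
Htr2c: ttctcaccaaggAAGCTTccttgggtgcac
At these sites the enzyme would part the window into neighbouring Hi-C fragments, a property of the reference and not a measurement.

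How many reads lie behind a bin is not known. Neighbouring 250 kb bins, whose likeness was used in place of depth, correlated on mus at 0.149 (WT) and 0.131 (KO), and on cas at 0.196 (WT) and 0.184 (KO). The SD of all entries was 0.0682 and 0.0597 on mus and 0.131 and 0.117 on cas, so entries vary less on mus than on cas, and less in KO than in WT, over the matrix as a whole. For 275 bins, the mean correlation with bins on the same side of Dxz4 was compared with that across it, at like distances. The median difference (same side minus across) was 0.0507 (WT) and 0.0349 (KO) on mus, and -0.0217 and -0.0165 on cas. It was above 0 in 89.5% and 91.3% of these bins on mus, and in 26.9% and 27.3% on cas. Which X was inactive was not tested.

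The first question was where each gene sits between the compartments. Class A and class B were the outer 20% of bins, on each end, along the main axis of variation (first principal component) of the averaged cas matrices, with 340 protein-coding genes in the 118 A bins and 55 in the 118 B bins. The compartment score of a bin is the difference of its mean correlations with the A bins and with the B bins (A minus B), over pairs at least 2 Mb apart. It was called A-side or B-side where its size was at least the median size over all bins of that matrix. The classes come from cas, so cas scores are partly built in, and Nlgn3 and Htr2c were themselves class A bins at 250 kb.

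The 8 genes did not share a compartment on the cas chromosome. Nlgn3 was A-side, Htr2c leaned to A, Dcx and, in WT, Gabra3 lay near 0, and Gria3, Glra2, Dach2 and Pcdh11x leaned to B. The 8 genes had a median score of -0.111 (WT) and -0.196 (KO), and all bins had one of -0.184 (WT) and -0.167 (KO). In WT cas 1 of 8 was called B-side (Pcdh11x), where 40.5% of all bins were, and 1 was called A-side (Nlgn3), where 9.52% were. In KO cas the same genes were called, with 39.3% of all bins B-side and 10.7% A-side. At 100 kb Nlgn3 was not called in WT cas, with 0.0708 against a limit of 0.0721.

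Among the receptor subunits, Gria3 had a cas score of -0.201 in WT and -0.162 in KO. Glra2 had -0.244 in WT and -0.238 in KO. Both lay on the B side of 0 and short of the call, whose limit was 0.279 in WT and 0.244 in KO. Gabra3 had a cas score of -0.0224 in WT and -0.238 in KO, and so moved from near 0 to the level of Glra2. Htr2c had 0.189 in both genotypes.

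Of the adhesion genes, Nlgn3 had the highest score of the 8 on cas, 0.342 in WT (95.7 percentile of all bins) and 0.294 in KO (93.2 percentile). Pcdh11x had the lowest, -0.362 in WT (26.7 percentile) and -0.326 in KO (25.2 percentile). These 2 genes of related function thus lay at opposite ends of the 8. Dcx had 0.0446 in WT and -0.00637 in KO, and the KO value changed sign in 2 of 7 settings. Dach2 had -0.257 in WT and -0.231 in KO.

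On cas the order in WT was Nlgn3, Htr2c, Dcx, Gabra3, Gria3, Glra2, Dach2, Pcdh11x. Glra2 and Dach2 differed by less than the WT to KO difference of Dach2, so their order is not resolved. Over the other settings tried, the sign of the cas score did not change for any of the 8 genes in WT, and in KO it changed only for Dcx.

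On the mus chromosome scores were much smaller and the order was another one. Gria3 was called A-side in both genotypes, with 0.0333 in WT and 0.0141 in KO, although it leaned to B on cas. In WT mus both genes left of Dxz4 had scores above 0 and the 6 right of it below 0. In KO mus the signs did not split by side. The WT mus score went from 0.0169 in the bin before that of Dxz4 to -0.0304 in the Dxz4 bin. Whether mus scores reflect the side of Dxz4 and not a compartment was not tested. In WT mus 3 genes were called B-side, Pcdh11x (-0.0304), Glra2 (-0.0281) and Dach2 (-0.0198), where 26.0% of all bins were, and 1 A-side, where 24.0% were. In KO mus the 3 called B-side were Dcx (-0.0301), Gabra3 (-0.0202) and Htr2c (-0.0143), where 28.6% of all bins were, and 1 A-side, where 21.4% were. At 100 kb, Nlgn3 was B-side on mus in both genotypes, with -0.00618 in WT and -0.00555 in KO, so these calls depended on the bin size.

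The remaining mus scores were small. Gabra3 had 0.0126 in WT. Nlgn3, the most A-like gene on cas, had -0.00449 in WT and 0.00506 in KO. Dcx had -0.0109 and Htr2c -0.00864 in WT. In KO, Glra2 had -0.00961, Pcdh11x 0.00490 and Dach2 0.00307. None of these passed the limit for a call, which was 0.0161 in WT and 0.0129 in KO.

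**Figure D1:**
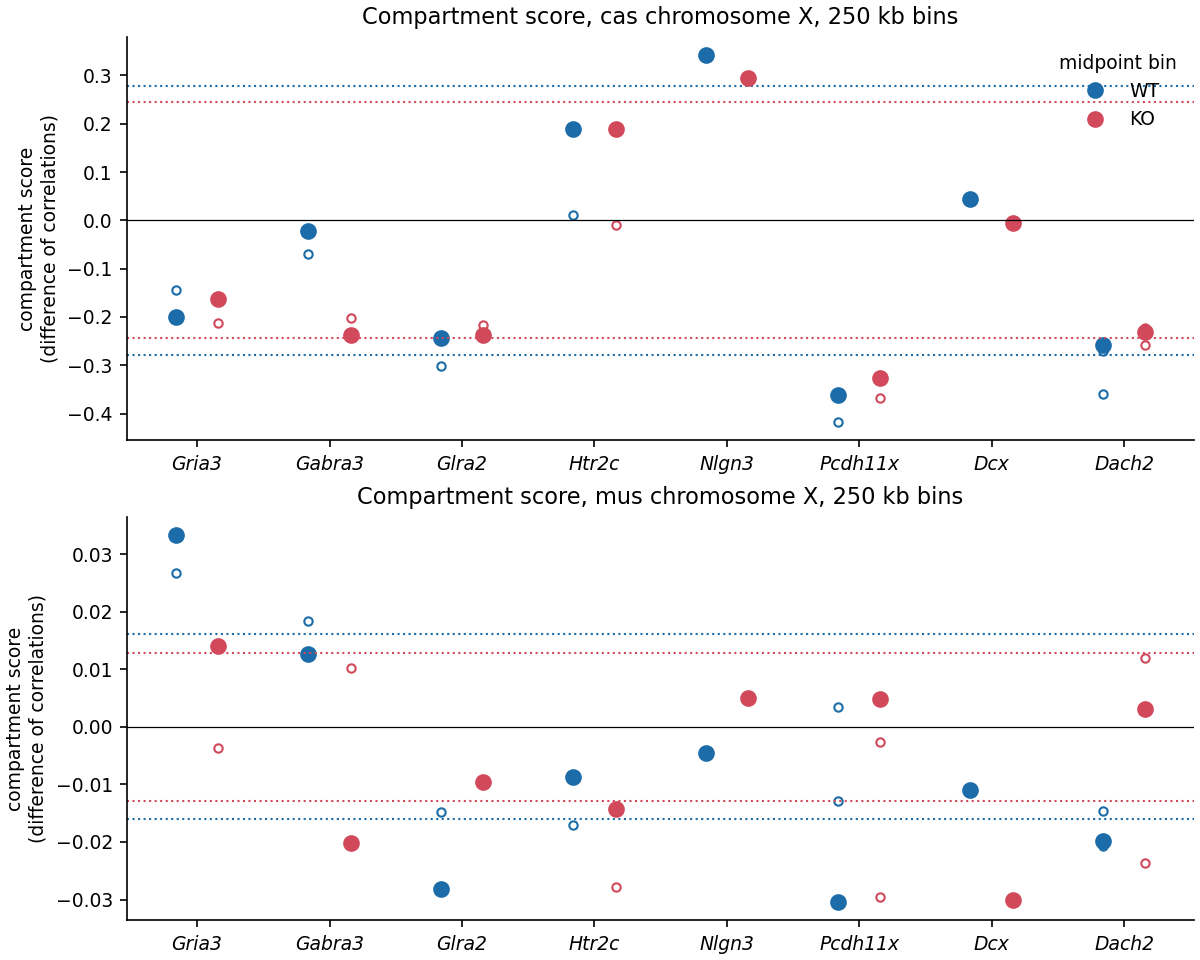
Compartment score of each gene (y axis, a difference of mean correlations without unit) on cas (upper panel) and mus (lower panel, with a much finer scale) in WT (blue) and KO (red). Filled points are the bin of the gene midpoint, open points the other bins of the gene body, and dotted lines the limits for a call in each genotype. On cas the genes run from Nlgn3 at 0.342 to Pcdh11x at -0.362 in WT, and Gabra3 is the gene with the widest gap between blue and red.

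The surroundings of the genes on cas showed what kind of region each occupies. Pcdh11x lay deep inside a uniform B region, where all 30 bins with data within 5 Mb were below 0, from -0.494 to -0.318 in WT and from -0.406 to -0.269 in KO. Dach2 lay in a similar one, with 39 of 41 bins below 0 in WT and 38 in KO. All 8 body bins of 100 kb of Pcdh11x and all 7 of Dach2 were below 0 in both genotypes on cas. In WT the Pcdh11x body bins ran from -0.113 to -0.0880 and those of Dach2 from -0.0960 to -0.0520.

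Nlgn3 lay in the middle of an A region. Its 8 neighbouring bins within 1 Mb had a mean cas score of 0.337 in WT and 0.290 in KO, and the lowest of them still had 0.226 and 0.157. The scores there belong to a dense group of genes, of which Nlgn3 is 1 of 9 in its bin, and cannot be assigned to Nlgn3 itself.

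Dcx lay on a border. On cas the bin before it, which holds Pak3, a synaptic kinase gene, had 0.286 in WT and 0.259 in KO. The bin 0.750 Mb after it, which holds the cation channel gene Trpc5, had -0.199 and -0.262. The boundary score, which compares the mean correlation of 100 kb bins within the 1 Mb before and the 1 Mb after a bin with that between these stretches, was 0.0652 for Dcx in WT cas and 0.0924 in KO cas. These are the 96.7 and 98.3 percentile of 1385 bins, and the highest of the 8 genes. On mus the Dcx bin had -0.00356 in WT, at the 5.85 percentile, and 0.00661 in KO.

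Htr2c also lay on a slope, near the next change in the same stretch. Its body bins of 250 kb had cas scores of 0.0113 and 0.189 in WT and -0.00908 and 0.189 in KO. The bin 0.500 Mb before its midpoint bin had -0.257 in WT and -0.163 in KO, and the following bin, which holds Il13ra2, had 0.357 and 0.313. In its 3 body bins of 100 kb the WT cas score went from 0.0192 through 0.0240 to 0.0606 along the gene, and in KO from 0.0163 through 0.0235 to 0.0498. The boundary score at its bin on cas was 0.0383 in WT, the 83.7 percentile, and 0.0386 in KO, the 81.7 percentile.

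Gria3 lay beside a narrow A peak in a wide B region. Within 5 Mb of it 31 of 39 bins were below 0 in WT cas and 32 in KO cas. The bin 0.500 Mb after it, with Xiap and the cohesin gene Stag2, had 0.306 in WT and 0.301 in KO, and the bin between them, with Thoc2, had 0.162 and 0.158. On mus all 39 bins around Gria3 were above 0 in WT, from 0.0124 to 0.0450, and 22 were in KO. Glra2 lay inside a short B stretch, which ran from 0.500 Mb before its bin to 1.00 Mb after it. The lowest point of this stretch was 0.500 Mb after the Glra2 bin, with -0.357 in WT and -0.291 in KO.

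**Figure D2:**
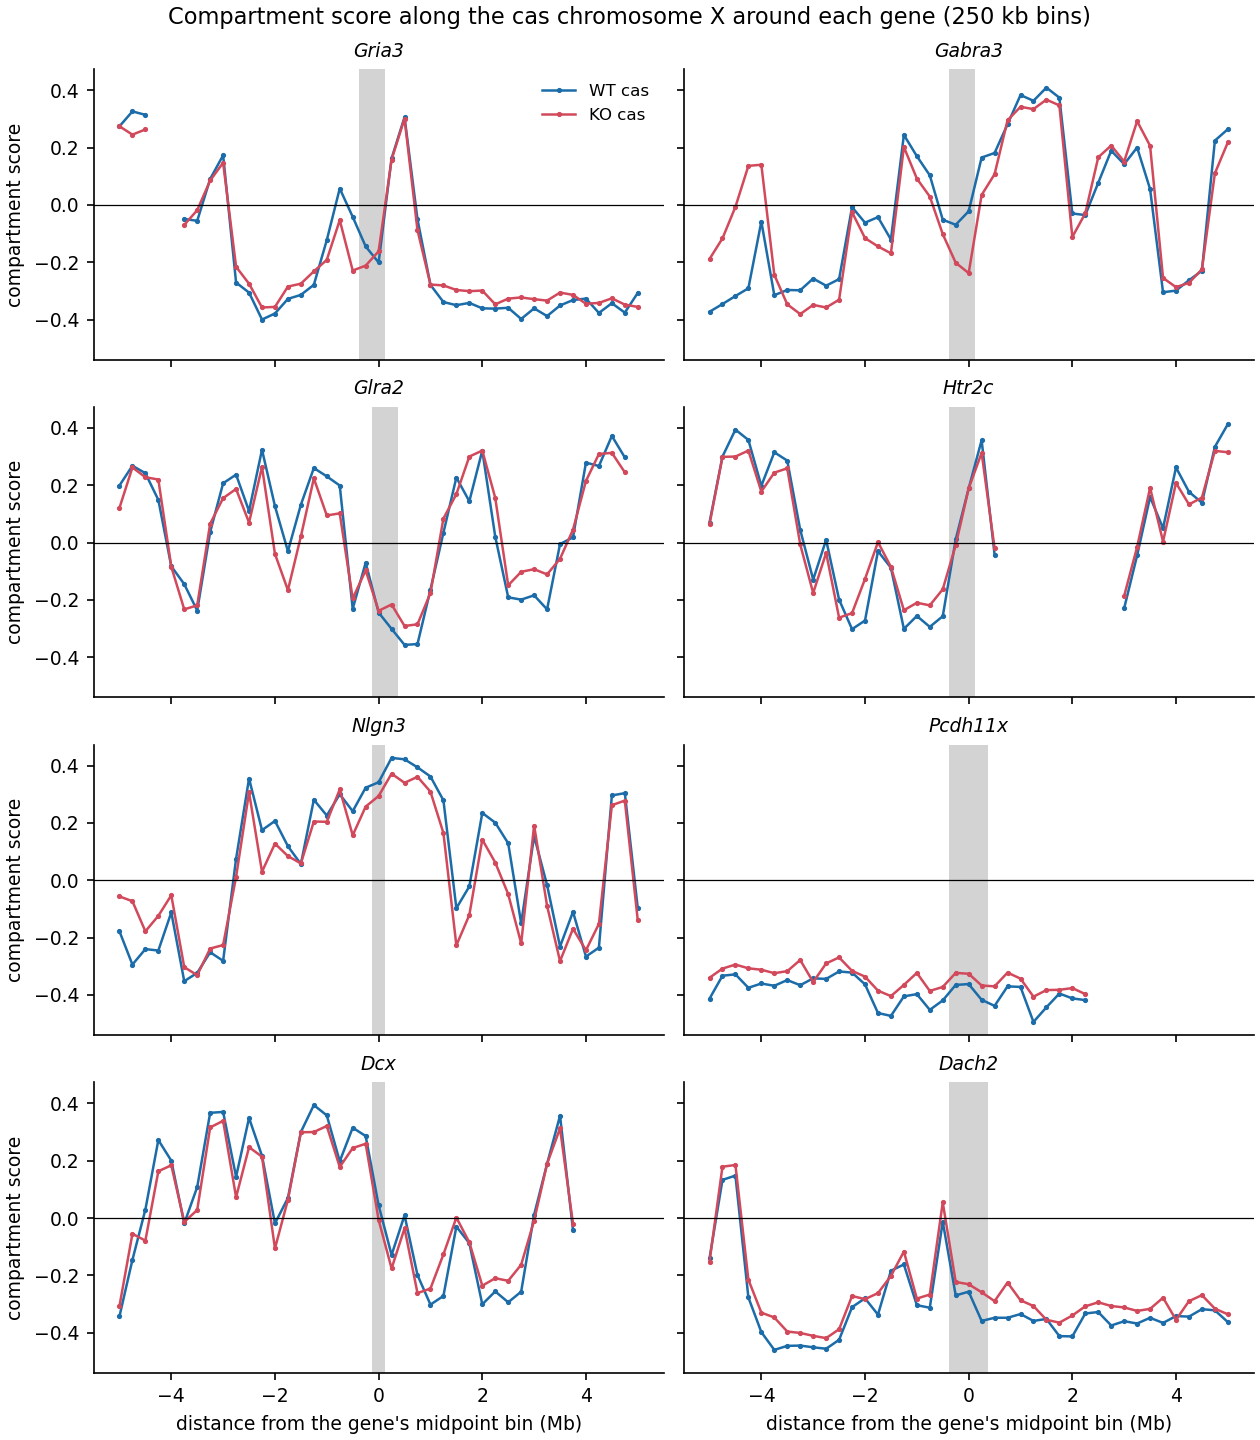
Compartment score on cas (y axis, a difference of mean correlations) in 250 kb bins against the distance in Mb from the bin of each gene's midpoint (x axis), in WT (blue) and KO (red), with the gene body shaded and gaps where bins held no data. Pcdh11x and Dach2 lie in long stretches below 0, Nlgn3 in a stretch above 0, and Dcx and Htr2c where the line crosses between them. At Gabra3 itself the red line runs below the blue one, but it runs above in 16 of 41 bins within 5 Mb.

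The next comparison asked how far each gene differed between KO and WT. A difference was called where its size was at least the upper quartile (75%) of the sizes over all bins of that chromosome, which was 0.0261 on mus and 0.0760 on cas. Gabra3 was lower in KO on both chromosomes, Pcdh11x was higher in KO on mus, and no other gene passed the limit. The median difference of the 8 was 0.00195 on mus and 0.00294 on cas, against 0.00158 and 0.0230 over all bins.

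For Gabra3 the cas difference was -0.216, the 0.680 percentile of all bins. It was the only gene of the 8 called lower on cas, where 10.4% of all bins were called lower, and none of the 8 was called higher, where 14.6% were. Its mean correlation with A bins went from 0.00848 in WT to -0.0753 in KO, and that with B bins from 0.0309 to 0.163. Both body bins of 250 kb were lower, with differences of -0.216 and -0.132, and so were all 3 body bins of 100 kb, with differences from -0.0513 to -0.0261. The midpoint bin of 100 kb had -0.0261, at the 8.56 percentile and just past the limit of 0.0241 at that bin size.

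The lower cas score of Gabra3 extended to the bins on either side, which hold other GABA receptor genes among several genes. The preceding bin, which is part of the Gabra3 body and holds Gabre and Magea10, had -0.0695 in WT and -0.202 in KO. The following bin, which holds Gabrq, Cetn2 and Nsdhl, had 0.165 in WT and 0.0345 in KO. Over the 7 bins within 1 Mb outside the gene body the mean difference was -0.0619, from -0.130 to 0.0144, so the difference was larger at the gene than in these bins. Farther out the direction was mixed. Within 5 Mb 25 of 41 bins were lower in KO and 16 higher, by up to 0.427 in the bin 4.25 Mb before the midpoint bin. In all 8 settings Gabra3 was lower in KO on cas, from -0.244 to -0.0261.

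The WT profile of the Gabra3 bin on cas was weak. The SD of its entries was 0.0424 in WT, the 0.850 percentile of all bins, and 0.0974 in KO, the 44.7 percentile. The correlation between its 2 body bins was 0.0262 in WT and 0.153 in KO. The bin was not among the 60 of 588 bins with the weakest neighbour correlation. That correlation was averaged over the 4 matrices, so it does not show how weak the bin is in WT cas alone. The part of read depth in this difference was not tested.

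On mus, Gabra3 went from 0.0126 to -0.0202, a difference of -0.0327, and was 1 of 8 called lower where 16.3% of all bins were. On that chromosome the bins left of Dxz4 were mostly lower in KO, 197 of 231 or 85.3%, and the bins right of it mostly higher, with 22.8% of 356 lower. The 7 bins flanking Gabra3 had a mean mus difference of -0.0281, close to that of the gene. Gabra3 on mus thus moved with its side of the chromosome.

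The other left-side gene, Gria3, also had a lower value in KO on mus, with a difference of -0.0192, in 36 of 39 bins within 5 Mb and in all 3 of its body bins of 100 kb. On cas its midpoint bin had 0.0384 and its other body bin -0.0676. Gria3 therefore had no single direction on cas, and the sign of its cas difference changed in 2 of 8 settings.

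Of the 6 genes right of Dxz4, 4 had a positive mus difference and 2 a negative one. Pcdh11x went from -0.0304 to 0.00490, a difference of 0.0353 at the 97.4 percentile, and was 1 of 8 called higher where 8.67% of all bins were. This was not shared by the rest of the gene: 2 of its 3 body bins of 250 kb were lower, the mean over them was 0.00417, and 4 of its 8 bins of 100 kb were lower. Dach2 had 0.0228 on mus, and there all 7 body bins of 100 kb were higher in KO, by 0.00267 to 0.0133. Of the 3 body bins of 250 kb of Dach2, 1 was lower in KO, with -0.00913, and the highest had 0.0326.

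Glra2 had a mus difference of 0.0185 and Nlgn3 of 0.00955, both positive in all 8 settings. Dcx had -0.0192, negative in all 8 settings, against a mean of 0.00721 in the 8 bins around it. Htr2c had -0.00564, negative in 7 of 8 settings and 0.00311 with the mean of each distance subtracted. Dcx and Htr2c, neighbours 3.25 Mb apart, were the right-side genes that differed in direction from most bins of their side.

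At 250 kb the B-region genes had cas values closer to 0 in KO, a direction that did not hold in every setting. Pcdh11x had a difference of 0.0362 and was higher in all 8 body bins of 100 kb and in 29 of 30 bins within 5 Mb. Dach2 had 0.0264, with 5 of 7 body bins of 100 kb and 36 of 41 bins within 5 Mb higher. These differences ranked at the 58.2 (Pcdh11x) and 51.9 (Dach2) percentile of all bins. Of the 356 bins right of Dxz4, 34.3% were lower in KO on cas, with a median difference of 0.0292, so this direction was common to that side. The genes on the A side or at its border had -0.0477 (Nlgn3) and -0.0510 (Dcx), also towards 0 or past it. At 100 kb the midpoint bins of Dach2 (-0.0168), Nlgn3 (0.00563) and Dcx (0.00296) had the opposite sign. After the KO matrix was scaled to the SD of the WT matrix, the difference was -0.00319 for Pcdh11x, -0.00154 for Dach2 and -0.0121 for Nlgn3. Htr2c had 0.000648 on cas. Glra2 had 0.00524 at its midpoint bin, but 0.0848 in its other body bin, past the limit for a call, and 0.0171 at 100 kb.

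**Figure D3:**
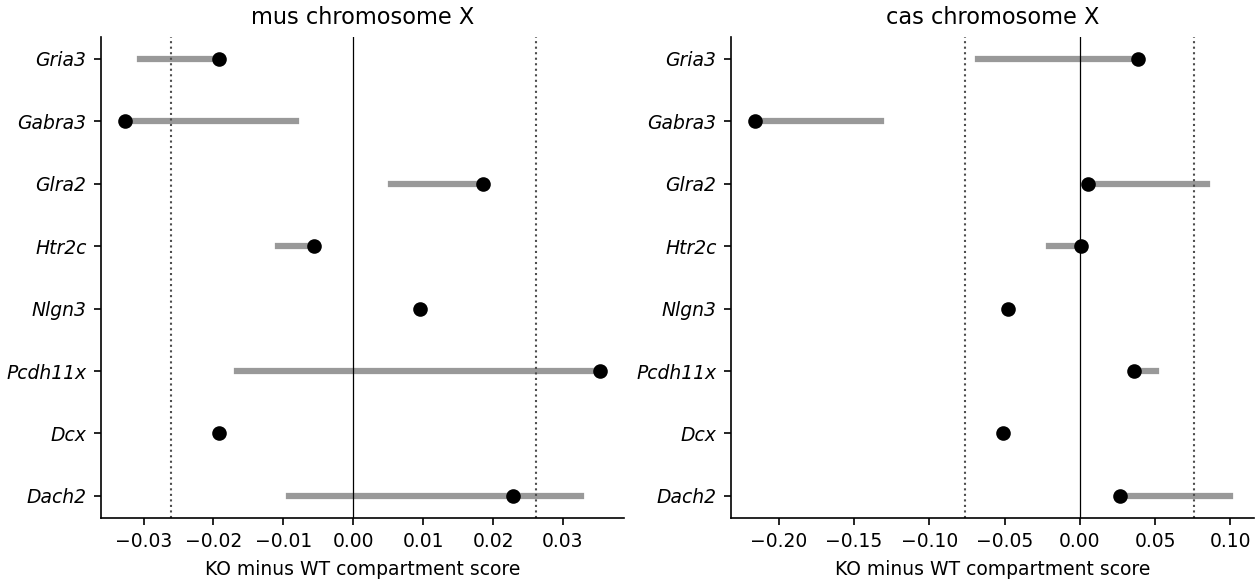
KO minus WT compartment score (x axis) of each gene on mus (left) and cas (right), with separate scales. Black points are the midpoint bin, grey bars the range over the 250 kb bins of the gene body, and dotted lines the limit for a call (0.0261 on mus, 0.0760 on cas). Gabra3 lies past the lower limit on both chromosomes, and the grey bar of Pcdh11x on mus crosses 0.

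A further comparison took the whole profile of each bin, its correlations with all bins at least 2 Mb away, and asked how alike it was in a pair of matrices, by Pearson's r. Over 573 to 578 bins that share the same libraries, r is a description. On cas most genes kept their profile between WT and KO. Pcdh11x had an r of 0.894, Nlgn3 0.883, Dach2 0.865, Glra2 0.847, Htr2c 0.817 and Gria3 0.790, against a median of 0.848 over all bins. Dcx had 0.446 and Gabra3 0.269, at the 13.6 and 6.63 percentile. Both also had weak profiles in WT, with an SD of entries of 0.0580 for Dcx at the 15.8 percentile.

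On mus the order differed. Gria3 had an r of 0.715 between WT and KO, at the 99.1 percentile of all bins, where the median was 0.491, and at 100 kb it had 0.376 at the 97.6 percentile. Dach2 followed with 0.660 and Glra2 with 0.581, but at 100 kb Glra2 had 0.0332, at the 12.3 percentile, and Dach2 0.210, at the 70.5 percentile. Nlgn3 had 0.474, Gabra3 0.428, Pcdh11x 0.422, Htr2c 0.354 and Dcx 0.317. Gria3 also had a strong profile on mus, where the SD of its entries ranked at 78.2% (WT) and 91.5% (KO) of all bins.

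Between the chromosomes of the same cells, profiles had little in common, and the median r over all bins was 0.104 (WT) and 0.111 (KO). Dach2 stood at the top of the 8 with 0.393 in WT, the 99.5 percentile, and 0.261 in KO, the 92.5 percentile. At 100 kb it had 0.197 in WT (99.5 percentile) and 0.127 in KO (97.7 percentile). Pcdh11x and Glra2 both had 0.265 in WT, and 0.127 and 0.121 in KO. Nlgn3 had 0.0257 and 0.00786, so its A-type profile on cas had no like on mus. Htr2c had 0.0571 in WT and -0.116 in KO, the latter at the 1.87 percentile, but 0.0162 in KO at 100 kb.

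**Figure D4:**
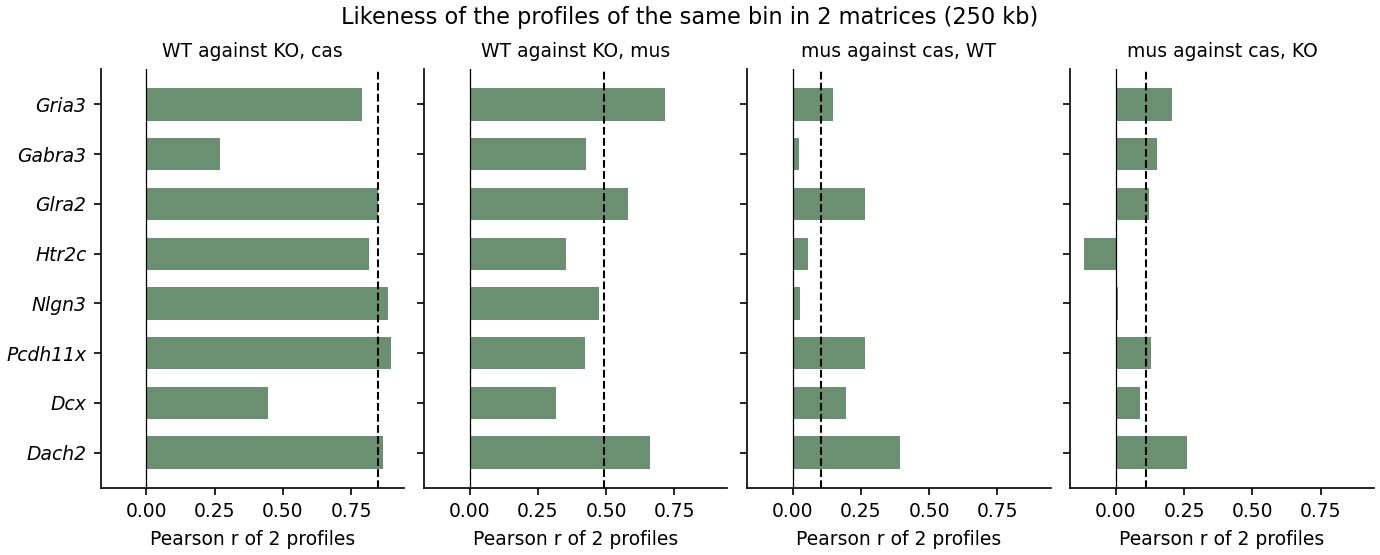
Pearson's r (x axis) between the profiles of the same 250 kb bin in 2 matrices for each gene, for WT against KO on cas and on mus and for mus against cas in WT and in KO. Dashed lines are the median over all bins. Gabra3 (0.269) and Dcx (0.446) have the shortest bars on cas, Gria3 the longest on mus (0.715), and Dach2 the longest between the chromosomes (0.393 in WT).

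The last comparison asked whether the 8 bins were alike among themselves, over their 28 pairs. On cas at 250 kb their median correlation was below that of all pairs, and on mus the direction differed between genotypes. The median pair correlation was 0.0229 in WT mus, 0.0487 in KO mus, -0.00939 in WT cas and -0.0206 in KO cas, against 0.0272, 0.0296, 0.0250 and 0.0235 over all 168616 pairs. Pairs above 0 numbered 20 of 28 in WT mus, where 66.2% of all pairs were, and 23 in KO mus, where 70.1% were. On cas 11 were above 0 in WT, where 57.9% of all pairs were, and 13 in KO, where 57.8% were. All pairs are not matched for distance. Among pairs at a like distance (within 1 Mb), the median percentile of the 28 was 39.6 in WT cas and 46.5 in KO cas. On mus it was 50.4 in WT and 61.2 in KO, so in KO cas and WT mus the 28 lay near the middle. At 100 kb the median was above that of all pairs in WT mus (0.0135 against 0.00403), KO mus (0.00926 against 0.00468) and WT cas (0.0142 against 0.00402) and below it in KO cas (-0.00541 against 0.00309), so the likeness of the set depended on the bin size.

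On cas the bins of Gria3, Dach2 and Pcdh11x, which leaned to B, had correlations above 0 with each other. Gria3 and Dach2, 72.0 Mb apart on opposite sides of Dxz4, had 0.151 in WT and 0.0663 in KO. Gria3 and Pcdh11x, 79.0 Mb apart, had 0.106 and 0.0299. Dach2 and Pcdh11x, 7.00 Mb apart, had 0.197 and 0.129. All 3 pairs were lower in KO, and ranked from 78.0 to 81.2% in WT and from 59.6 to 68.0% in KO among pairs at a like distance. At 100 kb the 3 pairs were also above 0 on cas in both genotypes, and the Gria3 and Pcdh11x pair, with 0.0645 in WT and 0.0596 in KO, ranked high among pairs at a like distance (95.1 and 95.4 percentile). Glra2, which also leaned to B, had 0.00107 and -0.0203 with Gria3, 0.0404 in both genotypes with Dach2, and 0.0757 and 0.0949 with Pcdh11x, at 250 kb.

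At 250 kb Nlgn3 was unlike most of the other genes on cas. With Glra2 it had -0.168 in WT and -0.0779 in KO. With Pcdh11x it had -0.144 and -0.154, and with Dach2 -0.139 and -0.150. Its mean with the other 7 was -0.0949 in WT and -0.0789 in KO. Htr2c was the only one with which it was above 0, with 0.0368 and 0.0348, near the middle of pairs at a like distance. At 100 kb that pair was below 0 (-0.0135 in WT, -0.0361 in KO), whereas the pairs with Glra2 (0.0310) and Dcx (0.0174) were above 0 in WT and that with Dach2 (0.00460) in KO.

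Dcx and Htr2c, the genes on the slopes, were alike on cas with 0.190 in WT (73.1 percentile of pairs at a like distance) and 0.180 in KO (73.4 percentile). At 100 kb they had 0.0814 and 0.0818. Htr2c and Dach2 had -0.114 in WT and -0.162 in KO, but 0.0111 and -0.0128 at 100 kb.

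Gabra3 resembled none of the others in WT cas, where its 7 pairs ran from -0.0785 (Nlgn3) to 0.0226 (Htr2c). In KO cas it had 0.170 with Pcdh11x and 0.121 with Glra2, against 0.00313 and -0.00724 in WT. Its mean with the other 7 was -0.0161 in WT and 0.0367 in KO. At 100 kb this mean was -0.0104 in WT and -0.0195 in KO, so the greater likeness in KO was seen at 250 kb and not at 100 kb.

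On mus the pair of Gria3 and Dach2 stood out at 250 kb, with 0.0968 in WT, the 90.0 percentile of pairs at a like distance, and 0.162 in KO, the 99.4 percentile. At 100 kb it had 0.0609 in WT at the 98.6 percentile, but -0.00157 in KO. Gabra3 had 0.116 with Htr2c and 0.0867 with Dcx in WT mus, and 0.0493 and 0.0169 in KO. A pair's KO minus WT difference had the same sign at both bin sizes in 14 of 28 pairs on mus and 13 on cas, so single pair differences are not resolved.

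**Figure D5:**
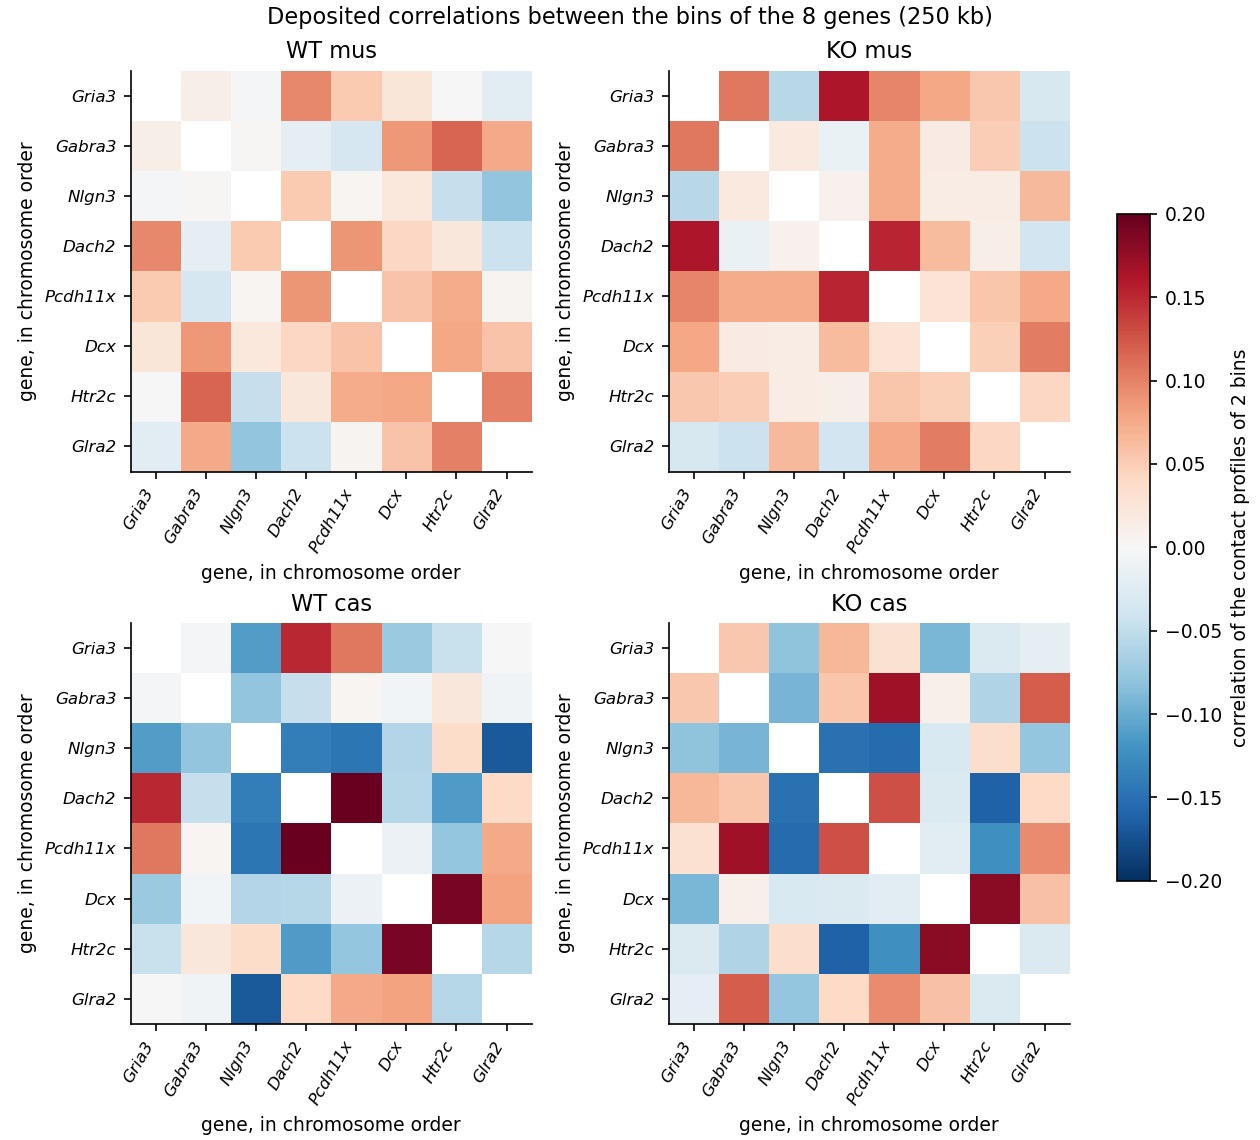
Correlation between the contact profiles of each pair of genes (colour, red above 0 and blue below 0, with the scale ending at 0.20 on each side) in the 4 matrices at 250 kb, with genes in chromosome order on both axes and the diagonal left blank. On cas the red cells among Gria3, Dach2 and Pcdh11x and the blue row of Nlgn3 are seen in both genotypes, and the Gabra3 row gains red cells in KO.

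The bins most like each gene, at least 5 Mb away and holding a protein-coding gene, were ranked by the mean of the WT and KO correlation. On cas, Gria3 was most like the bins of Btbd35f29 (0.207 in WT, 0.205 in KO) and Slc6a14 (0.147, 0.228), and least like that of Atp6ap2 (-0.212, -0.155). Gabra3 was most like those of Mageb18 (0.0931, 0.241) and Fthl17a (0.0863, 0.209). Glra2 was most like those of Cldn34b1 with Magea6 (0.282, 0.272) and of Samt2 (0.281, 0.269). Btbd35f29, Mageb18, Fthl17a, Magea6 and Samt2 belong to families known from the testis, and the share of such families among all bins compared was not counted.

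Htr2c was most like the bins of Tsc22d3 with Mid2 (0.149, 0.233) and of Tex13b with Vsig1 (0.153, 0.189). Nlgn3 was most like that of Utp14a with Bcorl1, 53.0 Mb away (0.366, 0.306), and least like that of Pou3f4, a neural transcription factor gene (-0.221, -0.223). Pcdh11x was most like the bins of Prrg1 (0.243, 0.307) and Klhl4 (0.266, 0.278). Dach2 was most like the bin of H2ab3, which is also a body bin of Pcdh11x (0.232, 0.205), and least like that of Zfx with Eif2s3x (-0.223, -0.206). Dcx was most like the bin of Mospd2 with Fancb (0.215, 0.0964).

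On mus the most similar bin was that of Pgrmc1 with Akap17b for Gria3 (0.178 in WT, 0.233 in KO) and that of Cdr1 for Gabra3 (0.261, 0.157). For Dach2 it was the bin of Pcdh19, another protocadherin gene (0.110, 0.221), and for Htr2c that of F9 with Mcf2, 87.0 Mb away (0.157, 0.149). For Dcx it was that of Arxes1 with Bex2 (0.208, 0.111), for Nlgn3 that of Tbx22 (0.146, 0.130), for Pcdh11x that of Zfp711 (0.163, 0.136) and for Glra2 that of Gm52432 (0.134, 0.205). None of these was among the few top-ranked bins kept on cas. Each gene had 324 to 349 candidate bins, so an overlap between so few bins was unlikely in any case. The share of such overlaps over all bins was not counted, and no difference between the chromosomes is drawn from this.

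Set beside other genes of the chromosome, the 8 had a lower median on cas than the other neuronal, the fibroblast and the broadly expressed genes. On cas, 30 other neuronal genes in 28 bins had a median score of -0.0212 in WT and -0.0589 in KO, with 10 of 28 bins B-side in WT and 11 in KO. The 13 fibroblast genes had 0.262 and 0.243, the 12 broadly expressed genes 0.315 and 0.270, and none of either was B-side in WT or KO. The 8 genes had -0.111 and -0.196, with 1 of 8 B-side in each genotype. Of all bins, 40.5% were B-side in WT and 39.3% in KO. The median over all bins was -0.184 in WT and -0.167 in KO, so that of the 8 was higher in WT and lower in KO. The lists also differed in gene density, with a median of 3.50 protein-coding genes in the bins of broadly expressed genes, 2.00 in those of fibroblast genes and 1.00 in those of the 8.

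Among the other neuronal genes the median differed from role to role. The 7 adhesion genes had a median WT cas score of -0.382, with 5 of 7 B-side, where 40.5% of all bins were, and Slitrk4 lowest at -0.465. Of the adhesion genes among the 8, Pcdh11x had -0.362 and Nlgn3 0.342. The 4 transcription factor genes had -0.336, with 3 of 4 B-side and Pou3f4 lowest at -0.456, and Dach2 had -0.257. The 7 synapse and cytoskeleton genes had 0.236, with none B-side and Pak3 highest at 0.286, and the 10 receptor and channel genes had -0.0212, with 2 B-side. Between WT and KO, Gabrq was the only one of the 30 called lower on both chromosomes, as Gabra3 was, with -0.0301 on mus and -0.130 on cas, and it lies in the bin next to Gabra3. Of all bins, 16.3% were called lower on mus and 10.4% on cas, and the share called lower on both was not counted.

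Within cas, the 8 differed in their mean correlation with the bins of the lists. Nlgn3 had a mean correlation of 0.162 with the fibroblast genes in WT and 0.163 in KO, and Htr2c had 0.0964 and 0.0680. Pcdh11x had -0.131 and -0.115, Dach2 -0.119 and -0.137, and Gria3 -0.0987 and -0.0700. Gabra3 went from 0.0152 to -0.0496, and with the broadly expressed genes from 0.00928 to -0.0732. At 250 kb Nlgn3 and Htr2c thus had means above 0 with the fibroblast genes, and Pcdh11x, Dach2 and Gria3 below 0, in both genotypes. These genes had the same signs with the broadly expressed genes, so the signs were not particular to the fibroblast list. With that list Nlgn3 had 0.145 in WT and 0.148 in KO, and Pcdh11x had -0.151 and -0.124.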

How the data were processed

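Hi-C of 2 WT and 2 KO samples was analysed from 8 matrices of chromosome X (mus and cas, WT and KO, 250 kb and 100 kb). The deposited values are scores: entry by entry, the correlation of the contact profiles of 2 bins, which the authors made after combining replicates and splitting reads by allele, per the file headers (HOMER format). Tools listed in the submitters' processing notes are Bowtie2, Juicer, cutadapt and HOMER, with the build mm10. Nothing in the sources used here gives the allele assignment rule, the contact normalization or read numbers. Noise shrinks correlations, more so in small bins.

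Genes were placed by RefSeq midpoints, in bins with data in all 4 matrices, which were 588 of 683 (250 kb) and 1461 of 1707 (100 kb). Scores, calls and profile likeness are defined where first used, and percentiles are over all bins of the same matrix. Named genes are the 8, the most and least similar bins, and, of other neuronal genes, those called on both chromosomes or extreme within their role. Slitrk4, Pou3f4 and Pak3 are such extremes. Some bins chosen in this way are not reported here. Neighbouring genes (Pak3, Trpc5, Il13ra2, Thoc2, Xiap, Stag2) and the genes listed for the Nlgn3 bin were chosen after their values were seen. The genes, lists and rules were chosen with earlier results of these data known. Python 3.11.15, numpy 2.4.6, scipy 1.17.1, pandas 2.3.3 and matplotlib 3.10.9 were used. Functions were tested on simulated data. Compartment scores, their differences, pair correlations and WT to KO likeness were recomputed at 100 kb, with the mean of each distance subtracted and over all bins of the gene body. Pairs at least 5 Mb apart and omission of the weakest 10% of bins were tried for all of these but pair correlations, classes of 30% for scores and differences, and scaling of KO to the SD of WT for differences. Similar bins and likeness between chromosomes were computed at 1 minimum distance. Boundary scores, list medians and the median difference between the sides of Dxz4 were computed in 1 setting.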

Additional observations from a re-analysis of the deposited data

Results flagged for a closer look

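For 3 genes the KO minus WT compartment score had opposite signs on mus and cas, and this difference between the chromosomes was not tested. For Gria3 the mus difference minus the cas difference was -0.0576, and the cas difference changed sign in 2 of 8 settings. For Nlgn3, whose score was higher in KO on mus and lower on cas, it was 0.0573, but at 100 kb the Nlgn3 difference on cas was 0.00563, of the same sign as on mus. For Htr2c it was -0.00629, from a cas difference of 0.000648 that changed sign in 5 of 8 settings.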

How the results depend on the processing

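Over 14 summary values with 72 alternatives, 56 stayed within their limits, 16 moved and 0 reversed. For the 48 values of single genes these were 261, 41 and 2 of 304. The reversed values are not all the changes of sign, because values counted as moved include others. The causes were not tested. With the mean of each distance subtracted, the median score in KO mus was 0.00121, against -0.00327 in the main setting. The number called B-side in WT cas was 2 with classes of 30% and with all bins of the gene body, and in KO cas 2 at 100 kb, with distance subtracted and with classes of 30%. The median pair correlation was 0.0142 in WT cas at 100 kb and 0.0148 in KO cas with body bins. In the main setting these were -0.00939 and -0.0206. The median KO minus WT score on mus was -0.000340 at 100 kb, -0.00125 with classes of 30%, -0.00200 with body bins and -0.00177 without the weakest bins. In the main setting it was 0.00195. On cas it was -0.00765 with KO scaled to the SD of WT and -0.0122 with body bins, against 0.00294 in the main setting. At 100 kb the median likeness of WT and KO profiles was 0.112 on mus and 0.449 on cas. The score in KO mus reversed for Gria3 with classes of 30% (-0.0000908) and for Gabra3 at 100 kb (0.000341). No paired analysis was possible because each deposited matrix pools both replicates.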
